A study of Mus musculus with 14 samples.

Results

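The genes described here turned at day 10 of the differentiation of Ocy454 cells: their level on day 10 lay on the same side of the levels on day 7 and on day 14. They were chosen from the CPM values of the differentiation time course, the reads of each gene scaled to the same total in every library, after adding 1 to the mean of the 2 libraries of each day. A dip gene had a day 10 value at least 2-fold lower than both day 7 and day 14, a peak gene had a day 10 value at least 2-fold higher than both, and the highest day mean had to reach 3 CPM. Of 39179 genes in the table, 11318 reached 3 CPM on at least 1 day, and 81 of these turned, of which 49 were dip genes (0.433%) and 32 were peak genes (0.283%). All 49 dip genes and 31 of the 32 peak genes were annotated as protein coding, the exception being A830036E02Rik. The values of days 7, 10 and 14 selected the genes and are therefore given as a description with no test.

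Ocy454 is a mouse osteocyte-like cell line that carries a thermosensitive large T antigen. Warming from 33 °C to 37 °C is used to halt its growth and start its maturation. RNA was taken at this temperature on days 1, 7, 10 and 14, in 2 libraries per day. In a separate experiment, cells kept at 37 °C for 17 days, as the labels give it, were stained for CD61, the integrin β3 chain, and the live cells with the 10% highest (CD61high) and the 10% lowest (CD61low) stain were collected, in 3 libraries each. No group received a drug or a genetic change beyond the large T antigen that all of them carry, and every library came from this 1 cell line. The sort shares no library with the time course, so the sorted libraries are the only measurement of these genes that the choice did not use. The time course held 27518605 to 34311238 reads on genes per library and the sort 18815602 to 19220064 estimated counts. Because each day is a single time of collection, the day and anything else that differed between collections cannot be told apart. In bulk RNA, fewer cells of a type and less RNA per cell cannot be told apart either.

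Osteoblasts that become embedded in bone matrix turn into osteocytes, cells with long dendrites that sense load and secrete regulators of bone turnover such as sclerostin. During this change, as the study describes it, both the transcripts and the shape of the cells alter. Where oxygen is low, hypoxia-inducible transcription factors raise glycolytic and angiogenic genes through DNA elements with a core of ACGTG. Contractile genes of smooth muscle type are driven by serum response factor, which binds a CArG box, a run of A and T letters flanked by CC and GG.

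Most osteoblast and osteocyte markers were present in these libraries, as the label says. Sost, which encodes sclerostin, had a mean of 0 CPM on day 1, 0.664 on day 7, 3.35 on day 10 and 17.7 on day 14, and Dmp1, a matrix phosphoprotein of osteocytes, had 0.959, 21.4, 46.7 and 54.9. The osteocyte genes Fgf23 and Mepe stayed below 1 CPM on every day. Of the markers of other cell types, 9 of 9 adipocyte markers, 8 of 10 macrophage markers, 5 of 8 muscle markers, 5 of 7 endothelial markers and 1 of 8 chondrocyte markers were below 1 CPM on every day.

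In all 49 dip genes both day 10 libraries lay below all 4 libraries of days 7 and 14, and in all 32 peak genes both lay above them, values that chose the genes. With the 2-fold rule applied to each replicate number alone, 37 of the 49 dip and 26 of the 32 peak genes were found with both numbers. The turn, which is the smaller of the ratios to day 7 and to day 14 after adding 1 CPM, had a median of 2.28 in dip genes, from 2.02 in Ptx3 to 4.22 in Ankrd37. In peak genes the median was 2.38, from 2.01 in KCTD12 to 6.60 in Vwf. Few genes turned by 3-fold or more, namely Ankrd37, Adm, Acta2, Fam132a, Ndrg2 and Cryab among dip genes and Vwf, Slit2 and Nacad among peak genes.

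Replicates were also used apart, which compares libraries of the same days and so cannot tell a day from its collection. With the rule applied to the replicate 1 libraries alone, 45 dip genes were found, of which 38 had a turn of at least 2 in the replicate 2 libraries, with a median of 2.37 and a lowest value of 1.79. The reverse choice found 57 dip genes on replicate 2, of which 37 reached 2 in replicate 1, with a median of 2.12 and a lowest value of 0.983. For peaks, 26 of 33 genes chosen on replicate 1 reached 2 in replicate 2 (lowest 1.54), and 27 of 41 chosen on replicate 2 did so in replicate 1 (lowest 1.51).

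Genes lay on both sides of the 2-fold limit with almost no gap. The dip genes nearest to it were Ptx3, Plekhn1 and Wif1 with turns of 2.02, 2.02 and 2.04, and the genes just outside were Car12, Tmtc1 and Nexn with 1.98, 1.97 and 1.97. The nearest peak genes were KCTD12, Rftn2 and Oasl2 with 2.01, 2.07 and 2.09, against 1.98 in both Cd244 and Tnfrsf22 outside it. The floor on level left out the dip of Edn2, which had a highest day mean of 2.68 CPM.

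Promoter sequences are shown for 4 members, chosen because they hold the letters of a motif: a hypoxia-inducible dip gene, a contractile dip gene, a bone matrix peak gene and an axon guidance peak gene. They do not stand for their groups, since ACGTG was not found in the promoters of Adm and Stc2. An exact CArG box, with only A and T letters inside, was not found in that of Acta2. The Acta2 promoter did hold the near match CCCTATATGG, with a C in the run. Myl9 was the only dip gene of those searched with an exact match. The contractile dip genes Tagln and Actg2 had no promoter sequence here and were not searched. Each sequence shown is the 200 bases before the annotated start, from RefSeq on GRCm38.p6. It is written 5′ to 3′ on the strand of the gene, with the letters of the motif in capitals. The capitals mark ACGTG in Ankrd37 (chr8:45999851-46000050, minus strand), a CArG box in Myl9 (chr2:156775264-156775463, plus strand), and TATAAA, the TATA box, in Bglap (chr3:88384467-88384666, minus strand) and Slit2 (chr5:47982955-47983154, plus strand).
Ankrd37: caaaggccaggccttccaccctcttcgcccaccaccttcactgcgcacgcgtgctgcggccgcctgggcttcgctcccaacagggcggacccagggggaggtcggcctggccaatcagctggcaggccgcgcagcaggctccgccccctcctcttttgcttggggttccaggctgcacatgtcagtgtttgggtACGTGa
Myl9: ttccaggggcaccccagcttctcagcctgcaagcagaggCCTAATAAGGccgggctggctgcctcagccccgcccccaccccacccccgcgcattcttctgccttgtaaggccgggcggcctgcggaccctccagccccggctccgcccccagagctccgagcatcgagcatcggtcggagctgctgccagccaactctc
Bglap: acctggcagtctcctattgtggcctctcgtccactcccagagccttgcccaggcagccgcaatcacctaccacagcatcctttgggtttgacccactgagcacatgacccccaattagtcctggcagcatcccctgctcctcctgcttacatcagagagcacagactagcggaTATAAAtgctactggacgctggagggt
Slit2: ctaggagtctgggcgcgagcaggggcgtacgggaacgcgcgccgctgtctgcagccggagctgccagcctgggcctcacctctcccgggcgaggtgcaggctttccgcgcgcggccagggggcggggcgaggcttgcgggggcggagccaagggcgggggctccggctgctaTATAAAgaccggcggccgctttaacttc

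Motif shares were counted over all members with a promoter in the table. RefSeq promoters of 250 bases before to 50 after the start were found for 34 dip genes (47 promoters) and 25 peak genes (27 promoters), among 32851 promoters of all genes, and both strands were searched. ACGTG, which also lies inside the E-box CACGTG, was in 14.9% of dip promoters, 29.6% of peak promoters and 19.6% of all promoters. An exact CArG box was in 2.13%, 3.70% and 1.63%. TATAAA was in 8.51% of dip promoters, 29.6% of peak promoters and 13.6% of all, and the 8 peak promoters with it were those of Bglap, S100a4, Abca1, Slit2, Oasl2, Tnfrsf23, Ackr4 and Grin3b. The E-box was in 6.38%, 11.1% and 7.15%, the AP-1 site TGANTCA in 4.26%, 7.41% and 7.81%, the cAMP response half-site TGACG in 10.6%, 25.9% and 20.8%, and CCAAT in 38.3%, 29.6% and 37.4%. A match is a run of letters, not a bound site, and these shares rest on few promoters and were not tested.

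The deepest dips, those of Ankrd37 and Adm, were in hypoxia-inducible genes. Ankrd37, an ankyrin repeat protein gene on chromosome 8 (46449939 to 46458744, GRCm39), had 39.9 and 42.9 CPM on day 7, 4.47 and 3.09 on day 10 and 20.02 and 18.3 on day 14, from 0.354 and 0.314 on day 1. It overlaps Ufsp2 on the opposite strand, which had means of 58.9, 37.2 and 63.6 CPM on days 7, 10 and 14. Adm, which encodes the vasodilator peptide adrenomedullin, had 4.35 and 4.15 CPM on day 7, 0.263 and 0.0967 on day 10 and 3.58 and 4.07 on day 14. In replicate 2 of day 10, Adm was at the 0.0967 CPM that 3 reads were worth in that library. Replicate 1 lay above its own value of 0.0985 CPM, and day 1 was lower still at 0.0886 and 0.0627. Stc2, the secreted glycoprotein stanniocalcin 2, had 20.6 and 21.7 CPM on day 7, 9.49 and 7.90 on day 10 and 16.9 and 20.9 on day 14.

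The hypoxia-inducible list has 22 genes, of which 3 are members, and the other 19 are given as a description, since the members were taken from the list on these same days. From day 7 to day 10, 15 of the 19 had a log2 fold change below 0, with a median of -0.49, from -0.996 to 0.62. From day 10 to day 14, 17 of the 19 were above 0, with a median of 1.14. Egln3, a prolyl hydroxylase of the hypoxia-inducible factors, had a mean of 87.2 CPM on day 7, 46.4 on day 10 and 450 on day 14. Its log2 fold change from day 10 to day 14 was 3.26. P4ha1, a prolyl hydroxylase of collagen, had means of 922, 462 and 894 CPM and was the gene with the log2 fold change of -0.996. Both comparisons use the same day 10 libraries, so they are not independent of each other. Ero1l, an oxidase that forms disulfide bonds in the endoplasmic reticulum, was a dip gene outside this list, with 88.0 and 87.7, 40.0 and 34.2, and 156 and 166 CPM on days 7, 10 and 14.

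Contractile genes formed another group of dip genes, and here day 1 was the highest day. Acta2, smooth muscle α-actin (chromosome 19, 34217737 to 34232990), had 1449.7 and 1454 CPM on day 1, 141 and 139.8 on day 7, 38.9 and 30.4 on day 10 and 192 and 196 on day 14. Tagln, the actin-binding protein transgelin, had 301 and 281, 58.5 and 61.4, 22.8 and 19.6, and 70.0 and 83.1 CPM on the same days. Myl9, a regulatory myosin light chain, had 333 and 330 on day 1, 60.8 and 56.5 on day 7, 29.3 and 25.8 on day 10 and 92.0 and 103 on day 14. In each of them day 14 regained the level of day 7 but not that of day 1. Actg2, smooth muscle γ-actin, had a mean of 35.8 CPM on day 1 and 4.85, 1.17 and 3.43 on days 7, 10 and 14. Reads from actin genes can be shared between near-identical copies. The skeletal muscle markers summed to 6.63 to 7.32 CPM on day 7, 5.83 to 6.67 on day 10 and 27.2 to 31.6 on day 14. The part of such cells in the levels of the contractile genes was not tested.

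The 13 contractile genes tested that were not members moved both ways from day 7 to day 10, with 7 log2 fold changes above 0 and 6 below and a median of 0.10, from -0.73 to 0.96. From day 10 to day 14, 10 were above 0, with a median of 0.40. Tpm2, a tropomyosin, had means of 100.4 CPM on day 7, 60.7 on day 10 and 116 on day 14, whereas Srf, the gene of serum response factor itself, had 117, 129 and 189.

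**Figure D1:**
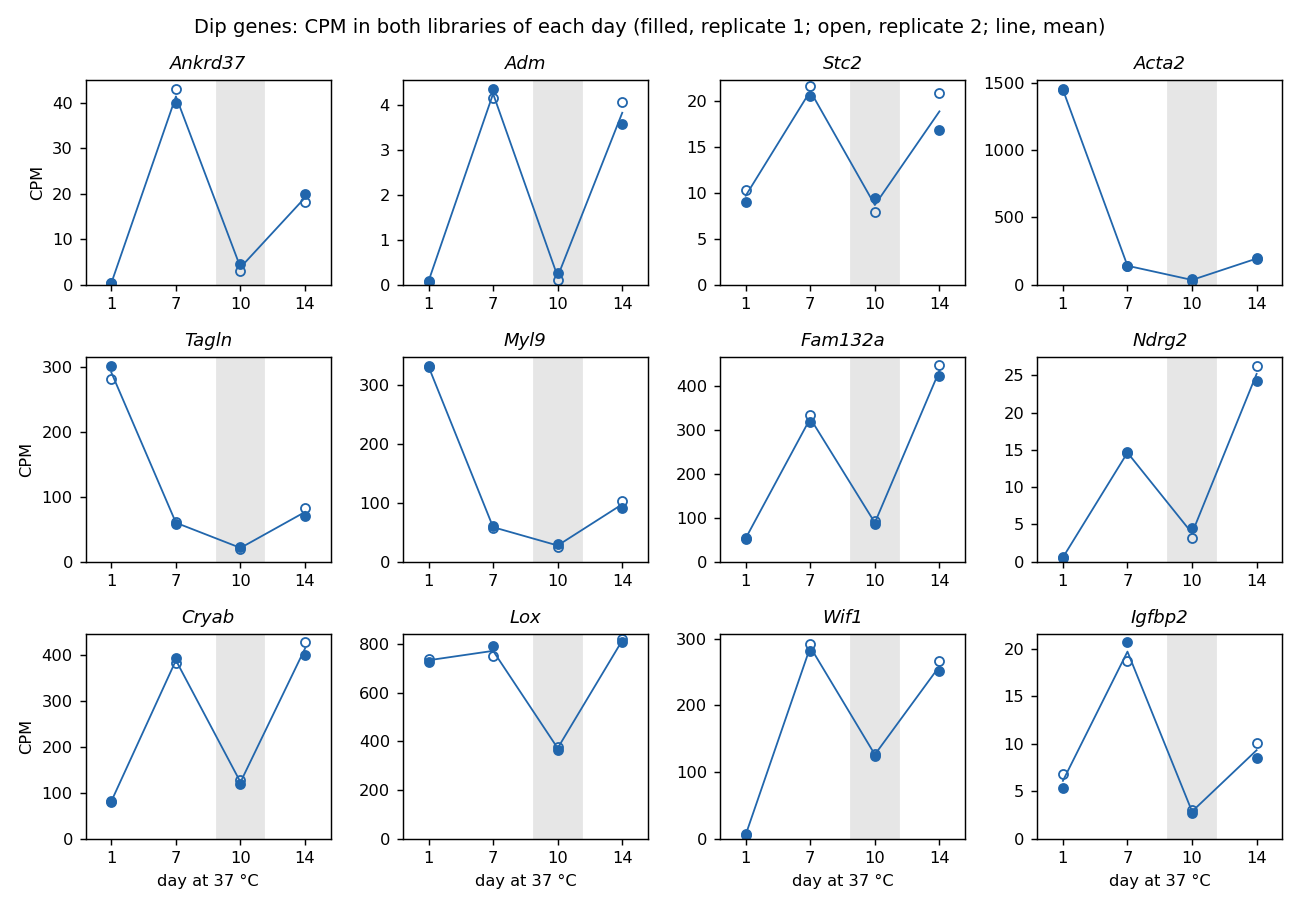
CPM of 12 dip genes in both libraries of each day (filled and open circles), with a line through the day means, the vertical axis starting at 0 and the days drawn at equal spacing. Day 10, shaded, lies below days 7 and 14 in every panel, while day 1 is the highest day for Acta2, Tagln and Myl9 and the lowest for Ankrd37, Fam132a and Wif1.

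Genes of the matrix and of secreted signals were also found among the dip genes. Lox, the enzyme that crosslinks collagen, had 794 and 751 CPM on day 7, 367 and 378 on day 10 and 811 and 819 on day 14. Leprel1, a prolyl 3-hydroxylase of collagen now named P3h2, had 100.4 CPM on day 7, 45.8 on day 10 and 154 on day 14 on average. The basement membrane genes Nid2, Lamb3, Col15a1 and Agrn had means on day 10 of 46.0, 7.998, 24.7 and 499 CPM, against 171, 18.9, 80.5 and 1071 on day 7. Nid2 and Lamb3 were highest on day 1 and Col15a1 and Agrn lowest on day 1, so these genes shared the dip but not the course before it.

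Secreted regulators and a receptor component dipped with them. Wif1, an inhibitor of Wnt ligands, had 282 and 293 CPM on day 7, 125 and 128 on day 10 and 251 and 266 on day 14, up from 6.97 and 5.21 on day 1. Slit3, a ligand of Robo receptors, had means of 141, 62.3 and 140 CPM, Igfbp2, an insulin-like growth factor binding protein, 19.7, 2.88 and 9.34, and Ptx3, a soluble pattern recognition protein, 88.3, 42.9 and 87.7. Ramp1, which forms receptors for calcitonin gene-related peptide, had 185, 80.5 and 313.

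Small chaperones were a further pair. Cryab, the small heat shock protein αB-crystallin, had 395 and 383 CPM on day 7, 119 and 128 on day 10 and 401 and 429 on day 14. Hspb7, of the same family, had means of 112, 51.8 and 232 CPM. The 11 other tested genes of the heat shock and metallothionein list had a median log2 fold change of 0.22 from day 7 to day 10, and 2 of them were below 0. Hspb2, which overlaps Cryab on the opposite strand, had a mean of 19.8 CPM on day 10 and 50.5 on its highest day.

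Dip genes outside these groups included genes named for the size of their turn or their level. Ndrg2, a cytoplasmic protein induced during differentiation of many cell types, had 14.5 and 14.7 CPM on day 7, 4.50 and 3.16 on day 10 and 24.2 and 26.2 on day 14. Megf6, a protein with epidermal growth factor repeats, had 573 in both libraries of day 1, 192 in both of day 7, 70.0 and 65.2 on day 10 and 244 and 256 on day 14. Smtnl2, a relative of the contractile protein smoothelin, had 19.9 and 19.0, 6.70 and 6.06, and 45.5 and 47.9 on days 7, 10 and 14. Irx5, a homeobox transcription factor, had means of 170, 69.4 and 178 CPM and overlaps the long non-coding RNA gene Crnde on the opposite strand. Adamtsl1, related to the ADAMTS proteases, had means of 75.4, 27.2 and 214, and Clybl, a mitochondrial enzyme, 37.8, 15.3 and 48.5. Synpo2l, an actin-associated protein, had means of 24.3, 11.02 and 51.7.

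Looked at over all 4 days, the dip genes fell into courses that the rule set only in part. The rule kept day 10 from being the highest day, and day 1 counted towards the floor of 3 CPM. Slc1a6 reached that floor on day 1 alone, with means of 4.16, 2.12, 0.408 and 2.10 CPM on days 1, 7, 10 and 14. In 29 of 49, day 1 was the lowest day, with day 10 between the levels of day 1 and of day 7, and 27 of the 49 were highest on day 14. In 13, day 1 was the highest day, these being Acta2, Tagln, Myl9, Actg2, Nid2, Megf6, Lamb3, Tnn, Pappa2, Gpr176, Fam132b, Slc1a6 and Ptx3. The day 10 mean was within 1.5-fold of day 1, after adding 1 CPM, in 10 genes, among them Adm, Stc2 and Ero1l. Day 14 was above day 7 in 32 of the 49.

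The largest group of dip genes within 1 Mb of each other held 5 genes. The genes Vwa1, Fam132a, Tnfrsf18, Agrn and Plekhn1 lie within 462 kb of chromosome 4 (155852606 to 156314676, GRCm39), a window with 34 genes of the table, of which 22 reached 3 CPM. Vwa1 encodes a matrix protein of the von Willebrand factor A family, Fam132a, now C1qtnf12, a secreted relative of adiponectin, Tnfrsf18 the receptor GITR, and Agrn the proteoglycan agrin. Fam132a had 319 and 335 CPM on day 7, 86.0 and 91.9 on day 10 and 424 and 448 on day 14, and Agrn had 1061 and 1082, 500.6 and 497, and 1248 and 1081. Vwa1 had means of 10.9, 4.38 and 29.8 CPM, Tnfrsf18 4.44, 1.24 and 5.55, and Plekhn1 18.2, 8.52 and 39.8.

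The 17 other expressed genes of that window were lower on day 10 than on day 7 in 13 cases. Their log2 ratio had a median of -0.28, from -0.84 to 0.50, while the median of all genes at 3 CPM was 0.06. From day 10 to day 14 the median was 0.30, against -0.04 for all genes. The lowest of them were the long non-coding RNA AW011738 (means of 24.9, 13.4 and 43.6 CPM on days 7, 10 and 14), Acap3 (176, 98.7 and 179) and 9430015G10Rik (82.3, 49.6 and 130). No test was made of this window, which was found from the members. Other dip genes within 1 Mb of each other were the pairs Ramp1 and Fam132b, Nid2 and Synpo2l, and Ear11 and Ndrg2.

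**Figure D2:**
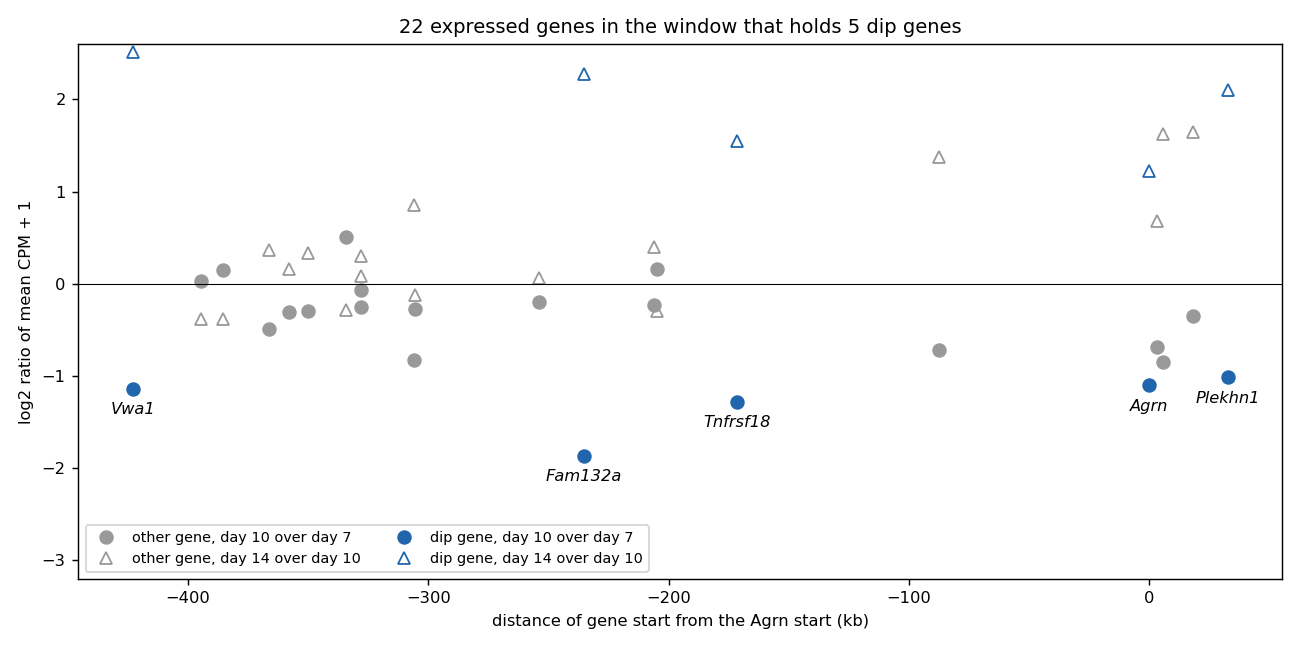
Log2 ratio of mean CPM + 1 for the 22 expressed genes of the window on chromosome 4, by the distance of their start from that of Agrn in kb. Circles give day 10 over day 7 and triangles day 14 over day 10. The 5 dip genes (blue) have circles at -1.02 or below and triangles at 1.22 or above, and most other genes (grey) have circles below 0.

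Among peak genes, Vwf stood furthest out. Vwf, the von Willebrand factor (chromosome 6, 125523737 to 125663642), had 1.12 and 0.690 CPM on day 1, 6.30 and 4.65 on day 7, 123 and 131 on day 10 and 17.9 and 19.0 on day 14. It is 1 of the 7 endothelial markers listed here. Pecam1, Cdh5, Kdr, Tek and Tie1 were below 1 CPM on every day, and Erg had means of 8.90, 6.08 and 16.4 CPM on days 7, 10 and 14. The summed level of the 7 markers was 13.7 to 15.1 CPM on day 7, 130 to 138 on day 10 and 34.0 to 36.2 on day 14, and the mean of Vwf alone was 127 on day 10. The part of endothelial cells in the level of Vwf was not tested beyond these values.

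Several peak genes code for secreted factors of bone and their antagonists. Bglap, which encodes the bone matrix protein osteocalcin, had 0.827 and 0.533 CPM on day 1, 7.92 and 8.41 on day 7, 53.8 and 54.4 on day 10 and 22.6 and 22.1 on day 14. Its near-identical neighbor Bglap2, which missed the rule, had means of 3.48, 22.3 and 11.5 CPM on days 7, 10 and 14, and reads can be shared between these copies. Notum, a carboxylesterase that inactivates Wnt proteins, had 11.7 and 9.93, 29.1 and 34.1, and 8.51 and 8.50 CPM. Wnt4, a Wnt ligand, had means of 11.6, 36.7 and 15.2.

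Of the 20 other bone matrix genes tested, 4 were called higher on day 10 than on day 7 by limma (adjusted p below 0.01 and a log2 fold change past 1, which 1.43% of all genes passed as higher) and 1 lower, with a median of 0.03. Among them, Bglap2, Sost, Dmp1 and Spp1 had log2 fold changes past 1, and at least 1 gene had one past -1. Phex, an endopeptidase of osteocytes, had means of 24.6, 18.8 and 93.9 CPM on days 7, 10 and 14.

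Axon guidance genes were found among the peak genes as well. Slit2, a ligand of Robo receptors, had 62.7 and 60.5 CPM on day 1, 27.8 and 26.3 on day 7, 120 and 123 on day 10 and 29.0 and 30.1 on day 14. Plxna2, a semaphorin receptor, had 125 and 115, 48.8 and 49.7, 176 and 203, and 66.8 and 64.0. The related ligand gene Slit3 was a dip gene, so both directions were seen within 1 family.

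Several peak genes chosen after their values were seen act on lipids or lie in membranes. Abca1, the transporter that exports cholesterol, had 8.55 and 9.12 CPM on day 7, 49.2 and 57.3 on day 10 and 23.2 and 21.4 on day 14. The transporter genes Abcd2 and Abca8a had day 10 means of 14.7 and 3.79 CPM, against 4.80 and 0.387 on day 7 and 2.63 and 0.786 on day 14. Rnf145, a ubiquitin ligase of sterol control, had means of 68.0, 172 and 74.0, and Ppap2b, a lipid phosphate phosphatase now named Plpp3, 20.3, 77.4 and 32.0. The 20 cholesterol synthesis genes tested, again as a description, had a median log2 fold change of -0.10 from day 7 to day 10. From day 10 to day 14 their median was -0.87.

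Gpnmb, a transmembrane glycoprotein of osteoblasts and macrophages, was also a peak gene. It had 140 and 141 CPM on day 1, 183 and 178 on day 7, 627 and 628 on day 10 and 279 and 285 on day 14. The 10 macrophage markers summed to 4.74 to 5.21 CPM on day 7, 10.4 to 11.8 on day 10 and 6.27 to 7.38 on day 14, with Emr1, Tyrobp, C1qa and C1qb at 0 in every library. The part of such cells in the level of Gpnmb was not tested beyond these values. S100a4, a calcium-binding protein, had 203 and 211, 74.4 and 80.7, 212 and 255, and 85.1 and 92.6 CPM, so that day 10 returned to the level of day 1.

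Oasl2, an interferon-stimulated gene of the oligoadenylate synthetase family, had 31.5 and 28.7 CPM on day 1, 6.48 and 6.90 on day 7, 20.4 and 18.3 on day 10 and 8.60 and 8.90 on day 14. The 18 other interferon-stimulated genes tested are given as a description, since the rule used these same days. From day 7 to day 10 they had a median log2 fold change of 0.89. From day 10 to day 14 the median was -0.47 and 16 of the 18 were below 0. Isg15 was 1 of the 2 genes with a lower level on day 10 than on day 7, with means of 63.0, 38.8 and 62.8 CPM. It lies next to Agrn in the chromosome 4 window described above.

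Of the other peak genes, Nacad, Pitpnm3 and S100b reached the floor of 3 CPM on day 10 alone. The rule itself therefore kept days 7 and 14 low in them. Nacad had 1.86 and 1.44 CPM on day 7, 6.99 and 7.12 on day 10 and 1.69 and 1.38 on day 14. Pitpnm3 had 0.690 and 1.20, 4.99 and 5.19, and 1.52 and 0.981, and S100b, a calcium-binding protein, had means of 1.21, 4.33 and 1.15. Il4i1, an amino acid oxidase, had means of 4.09, 13.8 and 5.43 and overlaps Atf5 on the opposite strand, which had 335, 389 and 354, so that a small share of reads assigned otherwise would change Il4i1. Nacad likewise overlaps Ccm2, S100b overlaps Dip2a and Grin3b overlaps Tmem259 on the opposite strand, with 67.4, 77.3 and 141 CPM on day 10, and among dip genes Tagln overlaps Pcsk7 (72.1), Nid2 Rtraf (52.6) and Fam132b Ilkap (119). Trnp1, a nuclear protein, had 32.8 and 34.5, 79.3 and 75.6, and 34.2 and 34.0, and Adamts5, a protease that cleaves aggrecan, had means of 29.7, 79.3 and 36.0 after 80.0 on day 1. Itgb8, an integrin chain, had 5.14, 13.7 and 3.91, and KCTD12, nearest to the limit, 29.0, 59.5 and 21.6.

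**Figure D3:**
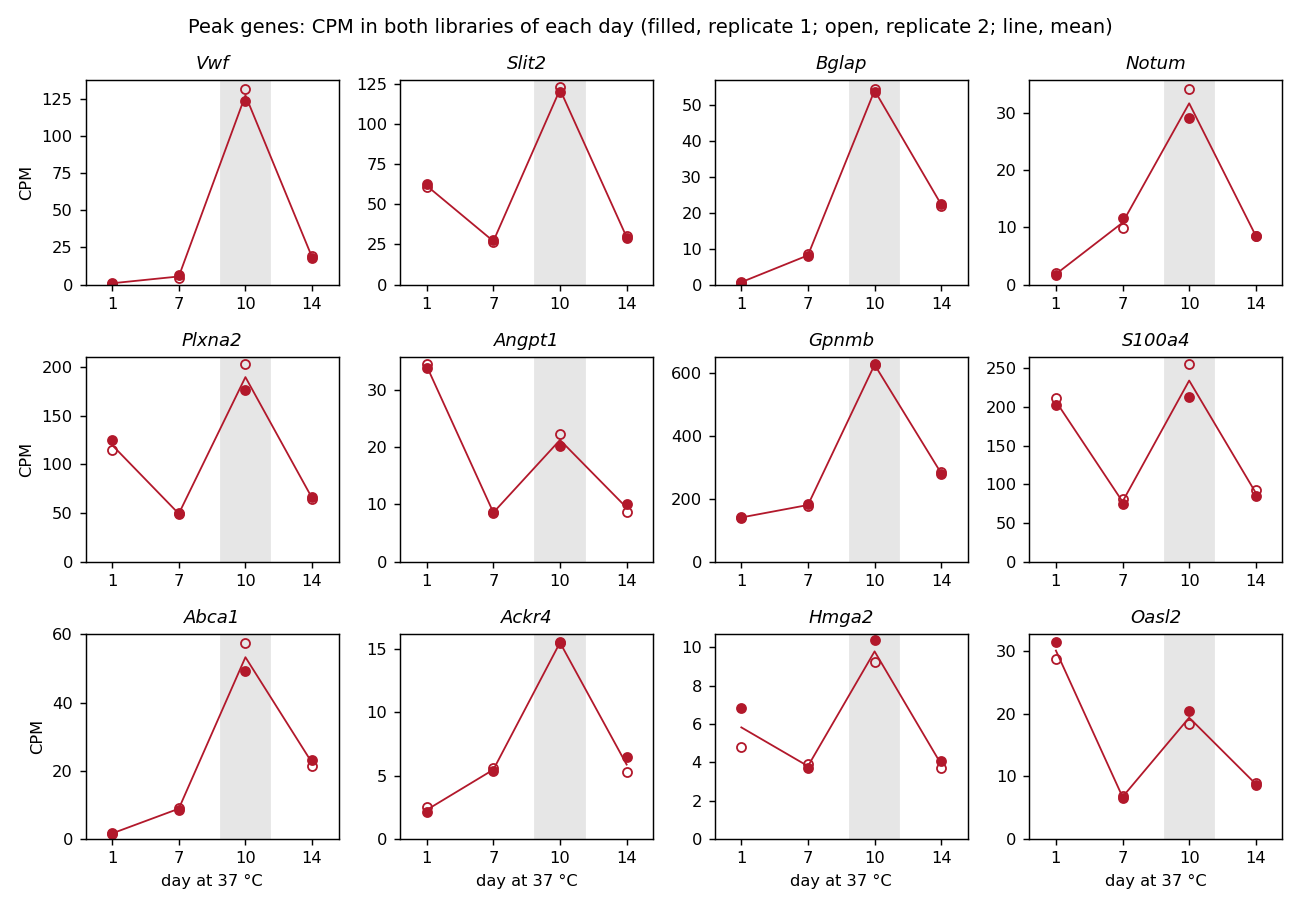
CPM of 12 peak genes in both libraries of each day (filled and open circles), with a line through the day means, the vertical axis starting at 0 and the days drawn at equal spacing. Day 10, shaded, lies above days 7 and 14 in every panel, and day 1 is above day 10 for Angpt1 and Oasl2.

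Over all 4 days, day 10 was the highest day in 26 of the 32 peak genes. In the other 6, namely Tnfrsf23, Shisa2, Adamts5, Angpt1, Oasl2 and KCTD12, day 1 was higher still, though in Adamts5 (80.0 against 79.3 CPM) and Tnfrsf23 (18.1 against 17.1) the libraries of days 1 and 10 overlapped. In 16 genes, Vwf, Bglap, Abca1 and Gpnmb among them, day 1 was the lowest day. Tnfrsf23 and its close relative Tnfrsf22 had day 10 means of 17.1 and 5.87 CPM, and reads can be shared between them too.

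**Figure D4:**
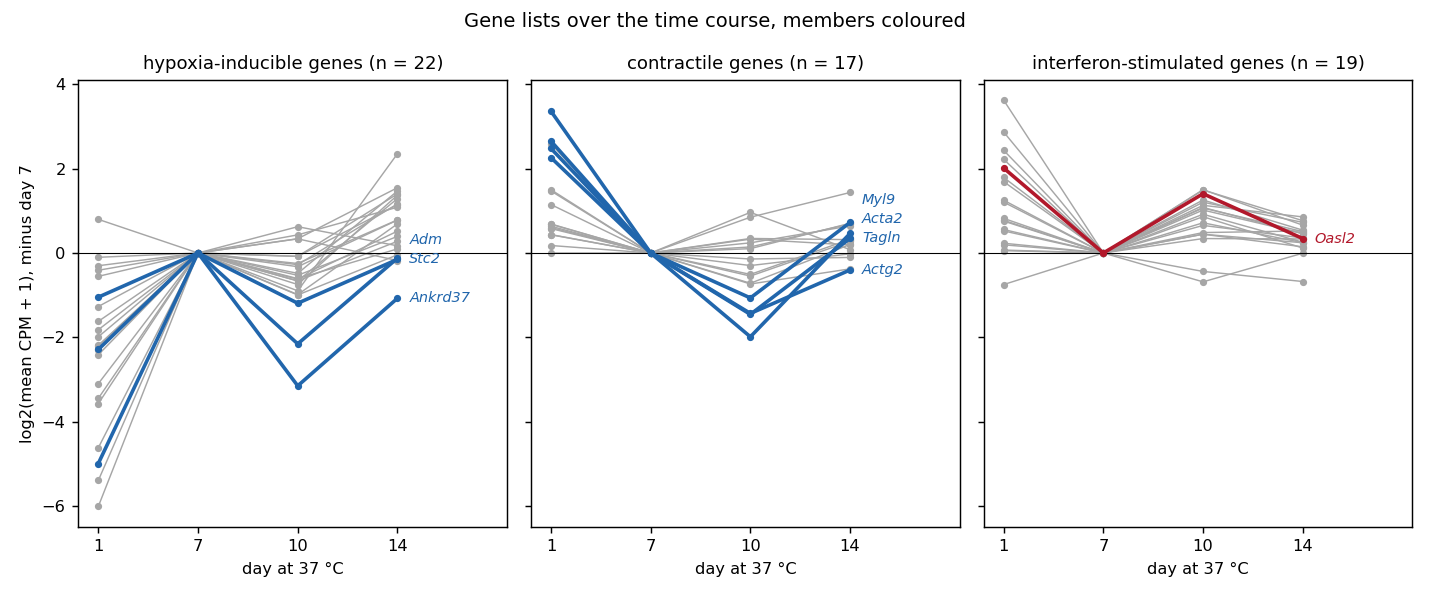
Change in log2(mean CPM + 1) from day 7 for the 22 hypoxia-inducible, 17 contractile and 19 interferon-stimulated genes tested, 1 line per gene, with members of the dip set in blue and of the peak set in red. Most hypoxia-inducible genes dip slightly on day 10 and exceed day 7 on day 14, and most interferon-stimulated genes lie above day 7 on day 10.

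The CD61 sort gave the independent measurement. Levels in the sort are CPM after TMM scaling. Genes were called by the quasi-likelihood test of edgeR, adjusted over 12077 genes by the method of Benjamini and Hochberg. The threshold was an adjusted p below 0.01 and a log2 fold change past 1 in either direction. Of the 49 dip genes, 45 passed the filter on low counts, and 18 of them were higher in CD61high cells (40.0%), where 4.84% of all genes tested were higher. A further 6 were lower (13.3%, against 4.37% of all genes), and 21 were not called. The median log2 fold change of the 45 was 0.74, with 31 above 0, while the median of all genes was 0.00. Of the 32 peak genes, 27 passed the filter, 7 were higher (25.9%), 3 were lower (11.1%) and 17 were not called, with a median of 0.05 and 14 above 0. With scaling by library size alone, which moved the median of all genes to -0.29, 14 dip genes were higher and 8 lower, 6 peak genes lower, and 316 genes of all higher and 963 lower. Genes that pass the filter are those with counts in all 6 libraries, so these shares do not describe the members that were left out.

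Dip genes of the hypoxia-inducible list split in the sort. Ankrd37 had 16.0, 11.4 and 13.1 CPM in CD61low cells and 32.3, 36.5 and 34.9 in CD61high cells, a log2 fold change of 1.36 ± 0.13 (SE; adjusted p = 1.3e-05). Adm had 2.82, 1.31 and 1.90 CPM against 10.2, 7.77 and 6.41 (2.01 ± 0.27, edgeR adjusted p = 0.00018). Stc2 was on the other side, with 16.3, 16.2 and 16.6 CPM in CD61low cells and 9.74, 10.4 and 8.88 in CD61high cells, and its log2 fold change of -0.76 did not pass the threshold. Of the 19 other genes of the list, 12 were higher (4.84% of all genes) and none lower by edgeR (1 lower at an unadjusted p below 0.05, 0 by DESeq2).

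The other dip genes that were higher in CD61high cells included genes of the matrix and of secreted signals. Leprel1 had the largest log2 fold change of those called higher, with 42.2, 37.3 and 53.1 CPM in CD61low cells and 207, 177 and 208 in CD61high cells (2.16 ± 0.13, edgeR adjusted p = 6.8e-07). Wif1 had 72.4, 52.3 and 66.7 against 229.6, 222 and 217 (1.81 ± 0.11, edgeR adjusted p = 8.5e-07). Slit3 and Ptgis, the prostacyclin synthase, followed with log2 fold changes of 1.68 each, Ramp1 with 1.61 and Lamb3 with 1.52. The chaperones Hspb7 and Cryab were both higher, by 1.46 and 1.32. Of the 5 chondrocyte markers tested in the sort, 4 were also called higher (4.84% of all genes) and 0 lower. The chondrocyte markers summed to 50.2 to 63.3 CPM in CD61low cells and 140 to 162 in CD61high cells. The part of such cells in the levels of these dip genes was not tested.

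Of the 6 dip genes that were lower in CD61high cells, 4 were highest on day 1 in the time course. Gpr176, an orphan receptor, had 5.60, 5.91 and 6.10 CPM in CD61low cells and 1.11, 0.921 and 0.412 in CD61high cells (-2.84 ± 0.28, edgeR adjusted p = 1.9e-05). Ptx3 had 98.7, 104.02 and 82.0 against 13.8, 15.7 and 15.1 (-2.67 ± 0.11, edgeR adjusted p = 1.5e-07). Igfbp2, Tnn (tenascin W), Ear11 and Pappa2, a protease of insulin-like growth factor binding proteins, had log2 fold changes of -1.95, -1.77, -1.62 and -1.02. The 4 were Ptx3, Gpr176, Tnn and Pappa2, and of the other 9 dip genes highest on day 1, Megf6 and Lamb3 were higher, 5 were not called and Slc1a6 and Actg2 were not tested. Igfbp2 was highest on day 7 and Ear11 on day 14. Ear11 belongs to a family of similar ribonuclease genes, between which reads can be split, and its adjusted p was 0.012 without CD61high replicate 2 or 3 and 0.011 without CD61low replicate 1, past the threshold. Pappa2 lay inside the fold limit of 1 without CD61high replicate 2 (-0.92), CD61low replicate 2 (-0.99) or CD61low replicate 3 (-0.97).

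Of the 4 contractile dip genes, Acta2, Tagln and Myl9 were not called in the sort and Actg2 was not tested. Acta2 had 234, 268 and 222 CPM in CD61low cells and 229, 289 and 219 in CD61high cells, and its groups overlapped (0.02 ± 0.11, edgeR adjusted p = 0.87). Myl9 had a log2 fold change of -0.22 and Tagln, with 23.4, 32.0 and 22.9 against 10.6, 17.2 and 14.4 CPM, one of -0.89 (edgeR adjusted p = 0.0023). Tagln passed the threshold as lower without CD61high replicate 2 (-1.07, edgeR adjusted p = 0.0012) and with scaling by library size alone (-1.20). The sign for Acta2 turned negative with scaling by library size alone (-0.28) and without CD61high replicate 2 (-0.11). Fam132a, Agrn, Tnfrsf18 and Plekhn1 of the chromosome 4 window were not called, with log2 fold changes of 0.73, 0.58, 0.74 and 0.64, and Vwa1 was higher (1.13, though 0.83 and not called with library size alone).

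Of the peak genes for secreted factors of bone named above, Bglap and Notum were higher in CD61high cells and Wnt4 was not called. Bglap had 26.2, 20.3 and 21.5 CPM in CD61low cells and 108, 142 and 122 in CD61high cells (2.45 ± 0.12, edgeR adjusted p = 3.4e-07). Most of its list rose with it: of the 20 bone matrix genes tested, Bglap included, edgeR called 16 higher (4.84% of all genes) and 0 lower. Their median log2 fold change was 1.35, and 2 of the 19 others were lower at an unadjusted p below 0.05. Wnt4 had 21.1, 17.1 and 14.5 against 12.6, 12.7 and 13.0, and its log2 fold change of -0.46 did not pass the threshold (edgeR adjusted p = 0.019), although its groups did not overlap. Vwf had 19.0, 14.5 and 20.6 against 91.2, 72.3 and 77.3 (2.16 ± 0.13, edgeR adjusted p = 9.6e-07). The other markers of endothelial cells gave 1 tested gene, Erg, with a log2 fold change of 0.96, and the 7 markers summed to 18.3 to 27.4 CPM in CD61low cells and 81.8 to 101 in CD61high cells.

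Ackr4, a scavenging chemokine receptor, had the largest increase among the members that passed the filter, from 0.765, 1.17 and 1.71 CPM to 7.92, 8.003 and 8.47 (2.74 ± 0.24, edgeR adjusted p = 1.0e-05). It overlaps Acad11 on the opposite strand, and reads of the pair cannot be told apart where counting ignores strand. Notum and Pitpnm3 were higher by 1.86 and 1.63. Abca1, with 15.6, 12.2 and 21.2 CPM against 55.1, 37.9 and 45.5, was also called higher.

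Oasl2 had the largest decrease among the members that passed the filter, from 113, 103 and 98.9 CPM in CD61low cells to 11.3, 12.6 and 10.7 in CD61high cells (-3.19 ± 0.09, edgeR adjusted p = 3.3e-08). Of the 15 other interferon-stimulated genes tested, 13 were lower (4.37% of all genes) and none higher by edgeR, also at an unadjusted p below 0.05 (0) and by DESeq2 (0). Angpt1, a ligand of the Tie2 receptor, and Hmga2, a chromatin protein, were lower by log2 fold changes of -1.53 and -1.38. Gpnmb had 546, 562 and 545 against 495, 543 and 469, a log2 fold change of -0.13 that was not called, and Slit2 had -0.81, also not called.

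**Figure D5:**
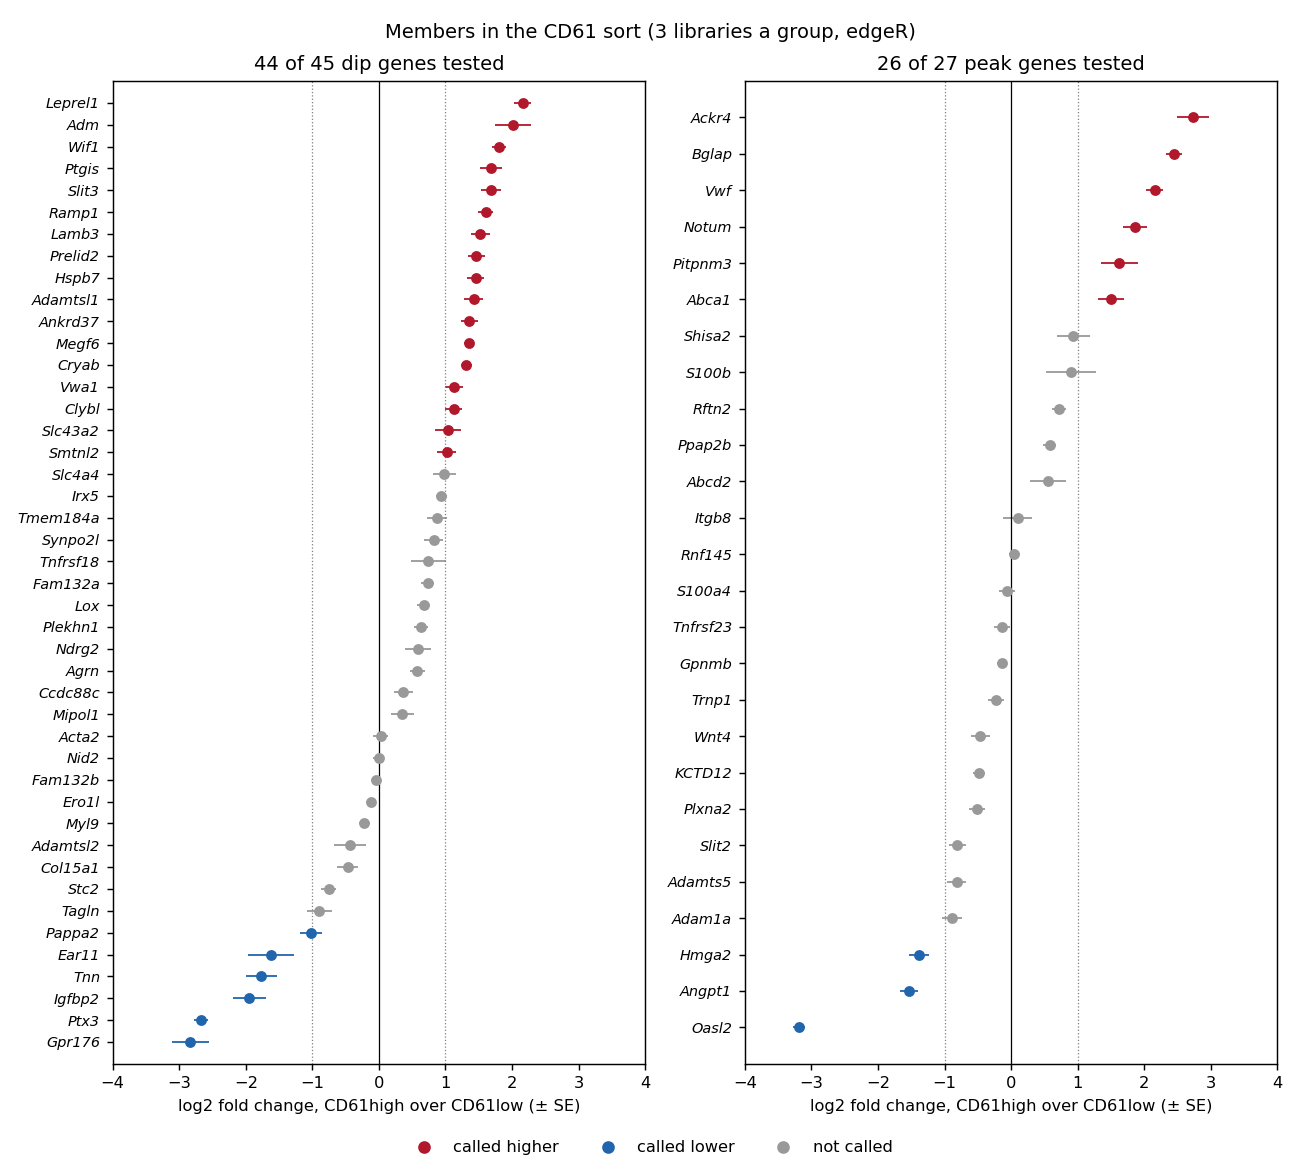
Log2 fold change of CD61high over CD61low cells with its standard error for 44 of the 45 dip genes and 26 of the 27 peak genes tested, in order of size, with genes called higher in red, called lower in blue and not called in grey, and dotted lines at -1 and 1. Dip genes lie mostly to the right of 0 (30 of the 44 plotted), while peak genes are spread over both sides (13 of the 26 plotted are above 0).

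Counting groups of libraries that did not overlap gave 28 dip genes apart and higher and 11 apart and lower of 45, where 29.6% and 28.5% of all genes were apart in those directions. For peak genes the counts were 11 and 10 of 27.

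The members left out by the filter were below 5 normalized counts in at least 1 sorted library. Slc1a6, a glutamate transporter, had 1.63, 2.63 and 2.05 CPM in CD61low cells and 0.0587, 0.0576 and 0.118 in CD61high cells. Rgs8, a regulator of G protein signaling, had 0.335, 0.235 and 0.781 against 3.93, 2.42 and 1.65. With no filter, edgeR called Slc1a6 lower (adjusted p = 6.1e-06) and Rgs8 higher (adjusted p = 0.00049). Rbp4, Actg2, Nacad, Il4i1 and Grin3b stayed at or below 1.13 CPM in all 6 libraries, Abca8a ranged from 0 to 2.02, and A830036E02Rik had no matched transcript. Per length, in TPM, the members with the highest means in CD61high cells were Bglap (157 to 196 in CD61low and 714 to 827 in CD61high cells), Cryab (246 to 281 and 517 to 539) and Gpnmb (391 to 464 and 293 to 327). In CD61low cells Gpnmb, Cryab, Acta2 and S100a4 had higher means than Bglap.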

How the data were processed

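RNA of the time course, poly(A) RNA per the labels, was sequenced by the authors (BGI DNBseq), mapped with STAR and counted with HTSeq, and CPM values of 39179 genes were deposited. The build of that table is not given in the sources used here, and whether counting used strand is not stated. All of these values (100%) lay within 0.01 of a whole read, which gave the depth. For the sort the authors ran Salmon on GRCm39, release 104, and deposited estimated counts and TPM per transcript. Of 116747 transcripts, 115556 matched GENCODE M39 (99.3% to 99.4% of counts), and counts were summed per gene and rounded. The study describes duplicates per day and independent groups of cells in the sort. The p-values measure the spread between these samples.

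Sorted cells were compared with edgeR 4.0.16 (TMM, quasi-likelihood test, Benjamini-Hochberg adjustment, at least 5 normalized counts in all 6 libraries), and days with limma 3.58.1 on log2(CPM + 1), with a trend, for genes above 1 CPM in at least 1 library. Fold changes on that scale understate low genes. The threshold was an adjusted p below 0.01 and a log2 fold change past 1. Scripts were tested on simulated data. Members and lists were chosen with earlier results of these data known. Genes named are the 10 largest turns and 10 highest day means of each kind, the 5 largest increases and decreases called in the sort, list members and the 3 genes on each side of the limit, and others named were chosen after their values were seen. Some genes that this rule or the groups include are counted but not reported by name here. Coordinates are from GENCODE M39 on GRCm39, and promoters from RefSeq. Alternatives were DESeq2 1.42.0, other scalings, filters, pseudocounts and limits, a replicate block, and each library left out. The CArG box was added after seeing the data. R 4.3.3, Python 3.11.15, pandas 2.3.3 and matplotlib 3.10.9 were used.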

Additional observations from a re-analysis of the deposited data

How the results depend on the processing

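The number of members depended on the limit. With nothing added to the day means, 81 dip and 62 peak genes were found, with a ratio of 1.5 214 and 284, and with a ratio of 3 6 and 3. With the 2-fold limit required between every day 10 library and every library of days 7 and 14, 31 dip genes remained. Leaving out each library in turn gave 44 to 57 dip and 32 to 39 peak genes. In the sort, leaving out each library gave 17 to 19 dip genes higher and 5 to 6 lower, 7 to 8 peak genes higher and 3 to 4 lower, and 502 to 591 genes of all higher and 478 to 539 lower. Scaling by library size alone gave 6 peak genes lower, and 316 genes of all higher and 963 lower. For all genes, a count test (edgeR) on whole reads called 332 higher and 216 lower at day 10 against day 7, and 502 and 227 at day 14 against day 10. A pseudocount of 0.1 gave 377 and 175, and 425 and 246. The cause of these shifts was not tested. Leaving out libraries gave 182 to 197 and 89 to 114, and 255 to 299 and 102 to 120.

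The same replicate numbers occur in each group, and whether they mark shared cultures is not given by the labels (correlations of same-numbered libraries of -0.32, 0.22 and -0.06 in the sort). A replicate block leaves the day means unchanged by construction, so the 49 dip and 32 peak genes say nothing about it. With the block, 18 and 7 of them were higher and 6 and 3 lower in the sort, with 574 genes of all higher and 509 lower. The counts of all genes between days did not change (182, 100, 266 and 111).

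Differences near 0 changed sign. In the sort, Acta2 (0.02) gave -0.28 with library size alone, and -0.11 (without CD61high replicate 2) to 0.10 (without CD61low replicate 2) with 1 library left out, below 0 also at -0.0049 and -0.05 without CD61low replicate 1 or 3. With 1 library left out, Nid2 (-0.01) ranged from -0.061 to 0.049, above 0 without CD61high replicate 2 or CD61low replicate 2 (0.02), and S100a4 (-0.06) ranged from -0.17 to 0.060, above 0 without CD61low replicate 1. Rnf145 (0.05) ranged from -0.011 without CD61low replicate 2 to 0.089, and gave -0.25 with library size alone. Smtnl2 (1.02) fell under the threshold at 0.72 with library size alone, and at 0.90 to 0.99 without CD61high replicate 3 or CD61low replicate 1 or 2. Tagln, Stc2, Slit2 and Adamts5 passed it with library size alone (-1.20, -1.06, -1.11 and -1.12), and Tagln also without CD61high replicate 2 (-1.07). Each day has only 2 libraries, and in genes near 3 CPM the added 1 CPM also moves the ratio.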
